A study of Mus musculus with 8 samples.

Results

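The platelet-derived growth factor (PDGF) system and the fibroblast surface markers were described in mouse embryonic fibroblasts (MEFs) treated with small molecules. The set held 10 genes of the 50578 listed, chosen by name and role, with earlier results of these data known. They were the receptor genes Pdgfra and Pdgfrb and the ligand genes Pdgfa, Pdgfb, Pdgfc and Pdgfd. The others, Thy1, Fap, Cd34 and S100a4, are used to mark or sort fibroblasts. All 10 had enough counts to be tested, among 15154 genes that did. MEFs are primary cells of the embryonic connective tissue, kept in culture. Here they were wild type, came from C57BL/6J embryos whose head, limbs and internal organs had been taken off, and were used at passages 3 to 5. Control MEFs carried the label "Control", and no vehicle was named. The other groups were MEFs given carbidopa, an inhibitor of aromatic L-amino acid decarboxylase, LY-364947, an inhibitor of the TGF-beta type I receptor, or CHIR-99021, an inhibitor of the kinase GSK3. Each compound was used at 10 µM, was added 2 h after plating and was kept in a medium replaced every 3 days. The methods give a treatment time for the PCR assays, and that of the RNA-seq libraries was not given in the sources used here. Each of the 4 groups had 2 libraries. In the labels LY-364947 appears as LY-364747, and the treated cells are described as hepatic-like. The study asked whether such compounds move fibroblasts towards a liver cell state.

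The libraries held 15039566 to 20504338 counts, and replicate libraries differed by more than sampling noise, by 4.31 (MEF) to 34.6 (carbidopa) times the chi-square value that counting error gives. No source said that the 2 libraries of a group came from separate cultures, so p-values measure the spread between these libraries, which may be technical. The fibroblast label held: the 10 fibroblast markers listed summed to 38524 and 38706 CPM (counts scaled to library size) in MEFs. In the treated libraries they summed to 8681 to 12308 CPM. Fn1 had the largest part, with means of 18975 CPM in MEFs and 2744, 3759 and 4870 CPM under carbidopa, LY-364947 and CHIR-99021. Vim, Col1a1 and Postn fell too, while Dcn had means of 1713 CPM in MEFs and 1946, 1850 and 1095 CPM. Of the 10, 8, 8 and 9 passed as lower, beside 19.7%, 17.2% and 20.1% of all genes tested. The 10 hepatocyte markers, among them Alb and Hnf4a, summed to 0.387 to 1.18 CPM in every library, and none had enough counts for a test. CPM were scaled by the TMM method, and values given in threes follow the order carbidopa, LY-364947, CHIR-99021. In bulk RNA, fewer cells of a type and less RNA per cell cannot be told apart. The comparisons with MEFs share the same 2 MEF libraries.

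PDGF ligands are secreted as dimers that bring receptor tyrosine kinases together on the surface of mesenchymal cells. PDGF-A and PDGF-C act mainly through the alpha receptor, PDGF-D mainly through the beta receptor, and PDGF-B binds both. PDGF-C and PDGF-D are released in a latent form, and a protease has to cut away their CUB domain before they can bind. In connective tissue this signal drives the proliferation and migration of fibroblasts and, through the beta receptor, of pericytes.

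Sequences upstream of the genes that gave the clearest contrasts are shown first: Pdgfc and Pdgfd, ligands of the same latent class whose values moved apart, and Cd34 and S100a4, which had the largest falls under CHIR-99021. The sequences are the 250 bases before the start site in RefSeq (GRCm38.p6, plus strand, 248 bases for Cd34). Capitals mark the CArG box, the motif that serum response factor binds, or TATAAA.
Pdgfc, chr3:81036166-81036415: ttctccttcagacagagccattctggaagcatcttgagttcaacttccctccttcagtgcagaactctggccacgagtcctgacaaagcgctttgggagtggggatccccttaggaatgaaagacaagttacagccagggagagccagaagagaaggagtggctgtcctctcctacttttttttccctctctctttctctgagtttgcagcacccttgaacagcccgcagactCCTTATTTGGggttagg
Pdgfd, chr9:6168236-6168485: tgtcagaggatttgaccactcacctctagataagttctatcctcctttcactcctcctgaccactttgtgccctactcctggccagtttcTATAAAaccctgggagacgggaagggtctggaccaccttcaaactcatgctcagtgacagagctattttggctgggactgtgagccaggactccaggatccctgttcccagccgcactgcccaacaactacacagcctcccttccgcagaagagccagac
Cd34, chr1:194938571-194938818: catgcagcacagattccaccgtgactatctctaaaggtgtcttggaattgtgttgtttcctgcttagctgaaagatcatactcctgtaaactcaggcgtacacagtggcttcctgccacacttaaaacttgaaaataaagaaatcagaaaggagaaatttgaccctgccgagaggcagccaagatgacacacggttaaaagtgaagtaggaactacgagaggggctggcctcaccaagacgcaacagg
S100a4, chr3:90603520-90603769: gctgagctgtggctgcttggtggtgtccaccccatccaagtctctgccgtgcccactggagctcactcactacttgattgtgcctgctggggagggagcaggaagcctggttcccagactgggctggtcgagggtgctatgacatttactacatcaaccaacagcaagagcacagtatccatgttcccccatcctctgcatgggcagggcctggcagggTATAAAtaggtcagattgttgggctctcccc
On both strands, 7 motifs were searched, chosen after these sequences had been seen. Pdgfc held a CArG box, CCTTATTTGG, 17 to 8 bases before the start, a motif found in 1.47% of 32851 promoter windows. It also held CAGACA, a SMAD-binding motif found in 17.1% of windows. TATAAA, the core of the TATA box, stood 31 to 26 bases before the start of S100a4 and 160 to 155 bases before that of Pdgfd, and was found in 12.4% of windows. None of the 7 motifs was present in the Cd34 window or in that of Pdgfra. The others were GTCTAGAC (0.167% of windows), the TCF/LEF-type motifs CTTTGAA (4.46%) and CTTTGTT (5.03%), and GGGCGG (32.7%), the GC box. Both Pdgfa windows held GGGCGG. These matches describe letters, not occupied sites. Of the 10 genes, 6 had an entry in the promoter table, and Pdgfrb, Pdgfb, Thy1 and Fap had none.

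Against MEFs, 8 of the 10 genes differed under carbidopa (1 higher, 7 lower), 10 under LY-364947 (2 higher, 8 lower) and 8 under CHIR-99021 (1 higher, 7 lower). Over all genes tested, 37.7%, 31% and 38.8% differed in the same comparisons (edgeR quasi-likelihood test, adjusted p under 0.05). Lower were 19.7%, 17.2% and 20.1% of all genes tested, and higher were 18%, 13.7% and 18.7%. The counts given below for other gene lists are to be read beside the same shares. The 10 genes, chosen with earlier results known, had median values of -1.29, -1.28 and -1.44 in log2 fold change. For all genes tested the medians were 0.04, 0.03 and 0.04. The 2 treated libraries lay outside the range of the MEF libraries for all 10 genes in all 3 comparisons, as did those of 68.9%, 72.7% and 76.2% of all genes tested. Thy1, Fap, Cd34, S100a4, Pdgfb and Pdgfc were lower with each compound, and Pdgfra was higher with each.

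**Figure D1:**
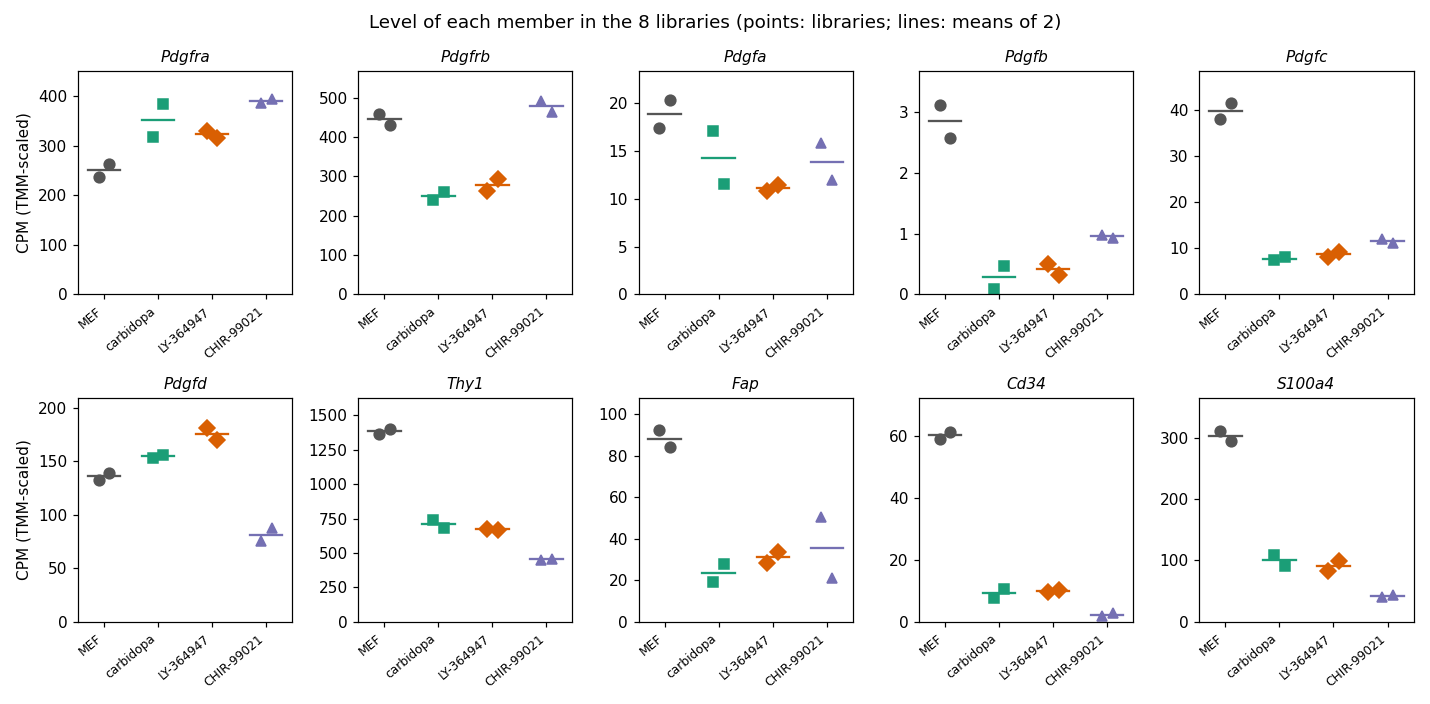
TMM-scaled CPM of the 10 genes (y axis, linear from 0, scale differs by gene) in the 8 libraries by group (x axis), where points are libraries and lines are means of 2. Cd34, S100a4, Thy1 and Pdgfc stood below both MEF libraries in all treated libraries, while Pdgfra stood above them.

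Pdgfra (chr5:75152292-75198215, plus strand) encodes the alpha receptor, which marks embryonic mesenchyme and many adult fibroblasts. Its level was 238 and 264 CPM in the MEF libraries, 318 and 384 CPM under carbidopa, 331 and 315 CPM under LY-364947, and 387 and 394 CPM under CHIR-99021. Every treated library was above both MEF libraries, and the CHIR-99021 libraries were the highest. The log2 fold change over MEFs was 0.49 under carbidopa (standard error 0.11, adjusted p = 0.00747), 0.36 under LY-364947 (standard error 0.11, adjusted p = 0.0324) and 0.64 under CHIR-99021 (standard error 0.11, adjusted p = 0.00144). These are rises of 1.40-fold, 1.29-fold and 1.56-fold. The call for carbidopa was lost without MEF replicate 1 (0.41, adjusted p = 0.0915). That for LY-364947 was lost without either MEF, either LY-364947 or either CHIR-99021 library, with log2 fold changes of 0.29 to 0.44. When a library is left out, the one that remains in its group is assumed to vary as the other groups do.

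Pdgfrb (chr18:61045150-61085061, plus strand) encodes the beta receptor, which is also the standard marker of pericytes. It was measured at 458 and 431 CPM in MEFs, 239 and 260 CPM under carbidopa, 263 and 293 CPM under LY-364947, and 492 and 463 CPM under CHIR-99021. The carbidopa and LY-364947 libraries were low, and the CHIR-99021 libraries stood just above the MEF libraries. Pdgfrb differed from MEFs by -0.83 in log2 terms under carbidopa (standard error 0.10, adjusted p = 1.36e-04) and under LY-364947 by -0.68 (standard error 0.10, adjusted p = 5.84e-04), which is 1.78-fold and 1.60-fold lower. Under CHIR-99021 the difference was 0.10 (95% confidence interval -0.12 to 0.33, adjusted p = 0.453). CHIR-99021 libraries were 1.91-fold above carbidopa libraries (log2 difference 0.94, standard error 0.10, adjusted p = 3.08e-04) and 1.72-fold above LY-364947 libraries (log2 difference 0.78, standard error 0.10, adjusted p = 8.96e-04).

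Most other pericyte markers were low or fell. Higd1b had 0 reads in all libraries, which allows up to 3, and Cox4i2 had 0 to 5. Of the 6 pericyte markers tested, 5 were lower in each comparison with MEFs, and the summed level of the 8 listed was 224 and 257 CPM in MEFs, 72.8 to 91.0 CPM under carbidopa or LY-364947, and 116 and 133 CPM under CHIR-99021. Cspg4, the NG2 proteoglycan, fell (log2 fold changes -2.31, -2.07 and -1.06), as did Des, the intermediate filament desmin (-1.70, -2.12 and -1.53). Abcc9, a channel subunit, went from 55 and 95 reads in MEFs to 1 to 12 reads in treated libraries. Kcnj8 had a mean of 1.39 CPM in MEFs and of 0.187, 0.188 and 0.116 CPM in the treated groups. Abcc9 and Kcnj8 had enough counts for a test through the MEF libraries, where they were high. Both are among the 5 counted as lower, and their calls add nothing to the levels. The tested marker that did not pass was Notch3, a Notch receptor of mural cells, at 41.1 and 43.7 CPM in MEFs and 33.9 to 44.0 CPM in treated libraries (adjusted p of 0.151 to 0.831). The part of such cells in the level of Pdgfrb was not tested.

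Per length, Pdgfrb stood above Pdgfra in every library. The Pdgfra level over the Pdgfrb level, each in CPM per kb of exon, was 0.284 and 0.334 in MEFs. It was 0.727 and 0.806 under carbidopa, 0.688 and 0.587 under LY-364947, and 0.429 and 0.464 under CHIR-99021. The receptor balance thus lay nearer to Pdgfra in all treated libraries, most so under carbidopa and LY-364947, and the groups did not overlap with MEFs.

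**Figure D2:**
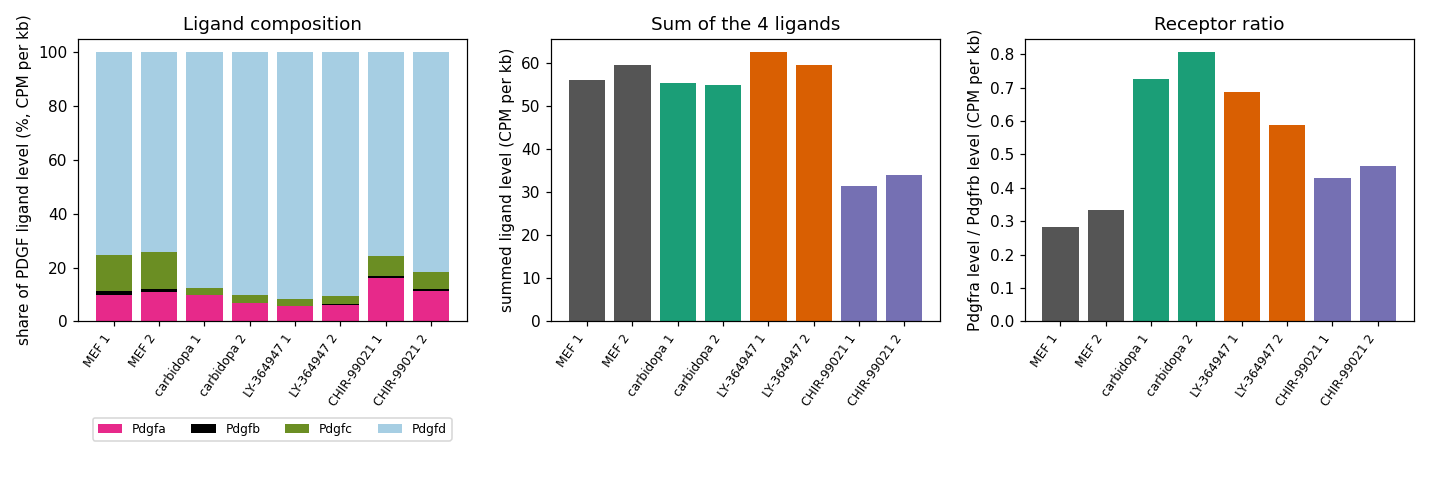
Share of each PDGF ligand in the summed ligand level (left, %, from CPM per kb of exon), that sum (middle, CPM per kb) and the Pdgfra to Pdgfrb ratio of levels (right) in each of the 8 libraries. Pdgfd took 74.3% to 91.7% of the ligand level, the sum was lowest in both CHIR-99021 libraries, and the receptor ratio was lowest in both MEF libraries.

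Pdgfc (chr3:81036416-81214040, plus strand) encodes a latent ligand of the alpha receptor. Its level was 38.1 and 41.4 CPM in MEFs, 7.39 and 8.02 CPM under carbidopa, 8.19 and 9.27 CPM under LY-364947, and 12.0 and 11.1 CPM under CHIR-99021. All treated libraries were low, with replicates close to each other and far from MEFs. Pdgfc was 5.16-fold lower under carbidopa (log2 fold change -2.37, standard error 0.14, adjusted p = 5.22e-07) and 4.55-fold lower under LY-364947 (-2.19, standard error 0.14, adjusted p = 9.58e-07). Under CHIR-99021 it was 3.44-fold lower (-1.78, standard error 0.13, adjusted p = 3.40e-06). CHIR-99021 libraries stood above carbidopa libraries by 0.58 (standard error 0.14, adjusted p = 0.0202), a call that was lost without either CHIR-99021 library (adjusted p = 0.153 without replicate 1 and 0.0613 without replicate 2) and when those groups were fitted alone (0.108).

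Pdgfd (chr9:6168584-6378850, plus strand), the latent ligand of the beta receptor, did not follow Pdgfc. It was read at 133 and 139 CPM in MEFs, 153 and 156 CPM under carbidopa, 180 and 170 CPM under LY-364947, and 75.1 and 87.2 CPM under CHIR-99021. Carbidopa and LY-364947 libraries lay above both MEF libraries, and CHIR-99021 libraries lay below them. Under CHIR-99021, Pdgfd fell by 0.75 in log2 terms (standard error 0.10, adjusted p = 3.17e-04), which is 1.68-fold. It rose under LY-364947 by 0.36 (standard error 0.10, adjusted p = 0.0221), but this call was lost without either MEF or either LY-364947 library, with values of 0.32 to 0.41. Under carbidopa the difference was 0.18 (95% confidence interval -0.05 to 0.41, adjusted p = 0.190). The CHIR-99021 libraries were below the carbidopa libraries by a log2 difference of -0.93 (standard error 0.10, adjusted p = 3.46e-04) and below the LY-364947 libraries by -1.11 (standard error 0.11, adjusted p = 1.41e-04).

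Pdgfb (chr15:79995874-80014977, minus strand) encodes the ligand of both receptors, which endothelial cells use to recruit pericytes. It was scarce, with 42 and 40 reads in MEFs, 2 and 10 under carbidopa, 9 and 6 under LY-364947, and 17 and 16 under CHIR-99021. The MEF libraries held the most reads of all 8, although they were not the deepest. Pdgfb was 9.91-fold lower under carbidopa (log2 fold change -3.31, standard error 0.53, adjusted p = 7.84e-04) and 6.83-fold lower under LY-364947 (-2.77, standard error 0.51, adjusted p = 0.00207). The carbidopa value moved between -4.81 and -2.59 as its replicate 2 or its replicate 1 was left out. Under CHIR-99021 the log2 fold change was -1.57 (standard error 0.46, adjusted p = 0.0205), a call lost in DESeq2 (adjusted p = 0.0544) and without either MEF or either CHIR-99021 library (adjusted p of 0.0773 to 0.126). The endothelial markers Cldn5, Tie1, Pecam1 and Cdh5 had at most 7 reads in any library. The 10 endothelial markers summed to 24.2 and 26.6 CPM in MEFs and 13.1 to 18.5 CPM in treated libraries. Of the 5 tested, 2, 2 and 3 were lower under carbidopa, LY-364947 and CHIR-99021, beside 19.7%, 17.2% and 20.1% of all genes tested. Vwf, von Willebrand factor, held 77 and 99 reads in MEFs and 3 to 14 in treated libraries. It is counted as lower in each comparison, but had enough counts for a test through the MEF libraries, where it was high. The Vwf calls thus add nothing to the levels. Emcn, endomucin, fell (log2 fold changes -2.90, -2.10 and -2.60). The third gene lower under CHIR-99021 was Tek, an angiopoietin receptor (-1.66). Kdr and Egfl7, which were also tested, passed in none of these comparisons. The mean of Egfl7 was higher in each treated group (1.92, 1.34 and 1.96 CPM) than in MEFs (1.09 CPM). The part of endothelial cells in the Pdgfb result was not tested.

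Pdgfa (chr5:138976014-138997370, minus strand), the classical ligand of the alpha receptor, gave differences near the threshold. Its level was 17.4 and 20.3 CPM in MEFs, 17.1 and 11.5 CPM under carbidopa, 10.8 and 11.4 CPM under LY-364947, and 15.8 and 12.0 CPM under CHIR-99021. The treated libraries were lower than both MEF libraries, but carbidopa replicate 1 was close to them. The log2 fold change under LY-364947 was -0.76 (standard error 0.21, adjusted p = 0.0179), and the call was lost without MEF replicate 2 or either LY-364947 library (adjusted p of 0.0788 to 0.129). Under carbidopa it was -0.40 (standard error 0.20, adjusted p = 0.145), and without carbidopa replicate 1 it was -0.71 (adjusted p = 0.0110). Under CHIR-99021 it was -0.44 (standard error 0.21, adjusted p = 0.115). That value passed when MEF and CHIR-99021 libraries were fitted alone (adjusted p = 0.0288) or without carbidopa replicate 1 or 2 (0.0280 and 0.0278). Pdgfa shares 813 exon bases (26.1%) with the antisense gene 6330403L08Rik, which held 204 to 346 reads, and whether counting used the strand was not given, so reads of the pair cannot be told apart.

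The summed ligand level under carbidopa and LY-364947 was close to that of MEFs, and Pdgfd made up most of it in every library. The sum of the 4 ligand levels per kb of exon was 55.9 and 59.4 in MEFs, 55.4 and 54.9 under carbidopa, 62.4 and 59.4 under LY-364947, and 31.5 and 33.9 under CHIR-99021. The CHIR-99021 libraries lay far below the other 6. The share of Pdgfd in that sum was 75.3% and 74.3% in MEFs, 87.4% and 90.2% under carbidopa, 91.7% and 90.7% under LY-364947, and 75.6% and 81.6% under CHIR-99021. That of Pdgfc was 13.4% and 13.7% in MEFs, 2.62% and 2.87% under carbidopa, 2.58% and 3.07% under LY-364947, and 7.51% and 6.43% under CHIR-99021. These shares are descriptions of RNA levels and were not tested.

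Proteins that cut or bind PDGF ligands moved in both directions, and the list of 8 is given in full. In the comparisons with MEFs, 3 were higher in each, and 3, 3 and 4 were lower, under carbidopa, LY-364947 and CHIR-99021. Plat, tissue plasminogen activator, which activates PDGF-C, had log2 fold changes of 0.62 and 0.57 under carbidopa and LY-364947 and -0.41 under CHIR-99021, all past the test (adjusted p = 9.01e-04, 0.00163 and 0.0100). Plau, the urokinase that activates PDGF-D, was lower in all treatments, by -0.61, -0.71 and -0.72 (adjusted p = 0.00506, 0.00220 and 0.00183). St14, matriptase, another activator of PDGF-D, passed the test under CHIR-99021, where it was higher (0.50, adjusted p = 0.0273). Furin, a proprotein convertase, was also higher under CHIR-99021 (0.81, adjusted p = 9.43e-04), and Pcsk5, a related convertase, under carbidopa (0.42) and LY-364947 (0.60). These 5 proteases were named after their values had been seen.

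Lrp1, an endocytic receptor that forms a complex with the beta receptor, had the steepest fall of that list. It was measured at 3311 and 3073 CPM in MEFs and at 394 to 509 CPM in treated libraries, and fell (log2 fold changes -2.96, -2.96 and -2.69, adjusted p = 1.76e-08, 1.76e-08 and 3.28e-08). Sparc, a matrix protein that binds PDGF-B, fell (log2 fold changes -0.89, -0.84 and -0.98). Nrp1, neuropilin-1, a co-receptor for PDGF and VEGF ligands, rose by 0.68, 0.96 and 0.57, the last call being lost without MEF replicate 2 (0.56, adjusted p = 0.0582).

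Downstream of the receptors, 31 signalling genes were tested. Of these 31, 7 were lower and 1 higher under carbidopa, 7 and 1 under LY-364947, and 6 and 4 under CHIR-99021. Over all genes tested, 37.7%, 31% and 38.8% differed in the same comparisons, so these counts do not set the list apart. For the list as a whole the median was -0.12, -0.13 and -0.05. Rasa1, the Ras GTPase-activating protein recruited to the beta receptor, fell (log2 fold changes -1.60, -1.51 and -1.56, adjusted p = 1.75e-06, 2.64e-06 and 2.05e-06). Gab1, an adaptor for PI3-kinase and named after its value was seen, was the gene that rose under carbidopa (0.46) and under LY-364947 (0.60), and with Crkl, Pik3cb and Src it rose under CHIR-99021 (0.48). Among 7 genes that end the signal, Cbl, a ubiquitin ligase, was lower under carbidopa (-0.71, adjusted p = 0.0229), a call lost without MEF replicate 1 or 2 (-0.73 and -0.69, adjusted p = 0.0863 and 0.110) and in the fit of those groups alone (0.0659). Under LY-364947 the values of the 7 lay between -0.25 for Cbl and 0.31 for Ptprj (adjusted p = 0.397 and 0.235), and that of Cbl passed when those groups were fitted alone (0.00846) or without carbidopa replicate 1 or 2 (0.0163 and 0.0171). Under CHIR-99021 Ptpn1, a tyrosine phosphatase, was higher (0.39, adjusted p = 0.0292), as was Acp1, another phosphatase (0.32, adjusted p = 0.0352). The Ptpn1 call was lost without either MEF library or CHIR-99021 replicate 1 (0.28 to 0.39) and in DESeq2 (adjusted p = 0.0697).

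The relatives of the PDGF genes in the same ligand and receptor families were compared as 12 genes, of which Kit (1 to 9 reads) and Flt3 (0 reads in all libraries) were not tested. Kitl, the ligand of Kit, had the largest rise of the list under carbidopa and LY-364947. Its level was 111 and 115 CPM in MEFs, 704 and 709 CPM under carbidopa, 752 and 702 CPM under LY-364947, and 560 and 603 CPM under CHIR-99021. It rose by 2.64, 2.69 and 2.36 on the log2 scale (adjusted p = 3.09e-08, 2.74e-08 and 6.14e-08). Among VEGF genes, whose products share the cystine-knot fold of PDGF, Vegfa rose by 1.01, 0.92 and 0.88. Vegfd fell (log2 fold changes -2.44, -2.42 and -4.35), from 181 and 200 CPM in MEFs to 34.3 to 36.2 CPM under carbidopa or LY-364947 and 8.92 and 9.75 CPM under CHIR-99021. Vegfc fell (log2 fold changes -1.11, -1.09 and -1.40). Vegfb was higher under carbidopa (0.50, adjusted p = 0.0250), with values of 0.17 in the other comparisons, and the call was lost without either MEF library or carbidopa replicate 1 (0.26 to 0.51) and with those groups alone (adjusted p = 0.0580). Pgf, placental growth factor, was higher under carbidopa (2.31) and CHIR-99021 (2.90), from about 0.203 CPM in MEFs to 1.06 and 1.59 CPM. It was near the floor, and had enough counts for a test through the treated libraries, where it was high. These calls thus add nothing to the levels. The Pgf call under carbidopa was lost without either MEF library or carbidopa replicate 1 (1.82 to 2.76). Il34 fell (log2 fold changes -1.91, -1.95 and -3.71), from a mean of 1.61 CPM in MEFs to 0.422, 0.405 and 0.116 CPM. It too was near the floor, and had enough counts for a test through the MEF libraries, where it was high. Its calls under carbidopa and LY-364947 were lost without MEF replicate 1 (-1.60 under carbidopa, -1.65 under LY-364947), without LY-364947 replicate 1 (-1.44) and in DESeq2 (adjusted p = 0.0706 and 0.0812), while that under CHIR-99021 held. Flt3l had differences of -0.11, -0.23 and -0.10 (adjusted p of 0.554 to 0.787).

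Csf1, the macrophage growth factor, fell under carbidopa and LY-364947 (log2 fold changes -0.77 and -0.88), and the difference under CHIR-99021 was 0.09 (adjusted p = 0.529). Its receptor Csf1r, of the same receptor class as Pdgfrb and a macrophage marker, was read at 37.4 and 33.2 CPM in MEFs, 12.4 and 14.2 CPM under carbidopa, 9.88 and 11.4 CPM under LY-364947, and 3.80 and 3.66 CPM under CHIR-99021. It fell (log2 fold changes -1.40, -1.73 and -3.24), and the CHIR-99021 libraries were lowest. Macrophage markers as a whole moved in that order. The 16 listed summed to 1310 and 1351 CPM in MEFs, 390 and 409 CPM under carbidopa, 290 and 299.9 CPM under LY-364947, and 98.1 and 105 CPM under CHIR-99021. Of the 14 tested, 13, 13 and 14 were lower, and the defining markers were above 0 in MEFs, with 466 and 559 reads for Adgre1 (F4/80) and 399 and 477 for Ptprc (CD45).

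Thy1 (chr9:44043384-44048579, plus strand) encodes CD90, the surface glycoprotein most used to sort fibroblasts. Its level was 1368 and 1399 CPM in MEFs, 736 and 678 CPM under carbidopa, 673 and 667 CPM under LY-364947, and 451 and 459 CPM under CHIR-99021. The groups with compounds did not overlap with MEFs, and the CHIR-99021 libraries were the lowest. Thy1 fell (log2 fold changes -0.97, -1.05 and -1.60, standard errors 0.09, 0.09 and 0.10, adjusted p = 2.25e-05, 1.34e-05 and 6.14e-07), which is 1.96-fold, 2.06-fold and 3.04-fold lower. CHIR-99021 libraries were below carbidopa libraries by -0.63 (standard error 0.09, adjusted p = 0.00168) and below LY-364947 libraries by -0.56 (standard error 0.09, adjusted p = 0.00350). T cells and neurons also carry CD90. Cd3d had 0 reads in all libraries, and the 6 T cell markers summed to 0.149 to 0.638 CPM. The 5 neuron markers summed to 61.0 and 68.0 CPM in MEFs and 6.22 to 8.82 CPM in treated libraries. That sum was mostly Map2, a microtubule protein, at 50.3 and 47.4 CPM in MEFs and means of 2.86, 4.16 and 2.14 CPM in treated groups. Tubb3 went from a mean of 14.8 CPM to 4.73, 3.65 and 3.93 CPM. Of 3 neuron markers tested, these 2 were lower in each comparison, beside 19.7%, 17.2% and 20.1% of all genes tested. The defining markers Rbfox3 and Snap25 had at most 2 and 3 reads in any library. The part of T cells or neurons in the Thy1 result was not tested.

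Fap (chr2:62500943-62574075, minus strand) encodes fibroblast activation protein, a serine protease of activated and tumour stroma fibroblasts. It was read at 92.3 and 84.4 CPM in MEFs, 19.2 and 27.9 CPM under carbidopa, 28.3 and 33.7 CPM under LY-364947, and 50.4 and 20.9 CPM under CHIR-99021. All treated libraries were below MEFs, and the 2 CHIR-99021 libraries stood far apart, replicate 1 being the highest of the treated libraries. Fap had log2 fold changes of -1.91 under carbidopa (standard error 0.32, adjusted p = 0.00115), -1.51 under LY-364947 (standard error 0.32, adjusted p = 0.00473) and -1.31 under CHIR-99021 (standard error 0.32, adjusted p = 0.00841). Without CHIR-99021 replicate 1 the last value was -2.07, and without replicate 2 it was -0.80, both still past the test. The difference between CHIR-99021 and carbidopa was 0.60 (95% confidence interval -0.12 to 1.32, adjusted p = 0.248). It was 1.10 without CHIR-99021 replicate 2 (adjusted p = 0.0164) and -0.16 without replicate 1 (adjusted p = 0.759). With no filter on low counts its adjusted p was 5.52e-04.

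Dpp4, the closest relative of Fap and its neighbour on chromosome 2, went the other way. The genes lie 88711 bases apart with 1 protein-coding gene, Gcg, between them. Dpp4 encodes CD26, a dipeptidyl peptidase that marks fascia and adventitial fibroblast progenitors, and was measured at 3.27 and 3.74 CPM in MEFs, 27.9 and 31.3 CPM under carbidopa, 29.1 and 31.0 CPM under LY-364947, and 7.25 and 7.25 CPM under CHIR-99021. It rose by 3.07, 3.09 and 1.04 on the log2 scale (standard errors 0.15, 0.15 and 0.16, adjusted p = 1.70e-07, 1.73e-07 and 6.48e-04). Per kb of exon, Fap stood 31.5 and 25.2 times above Dpp4 in MEFs. The ratio was 0.767 and 0.993 under carbidopa, 1.09 and 1.21 under LY-364947, and 7.75 and 3.22 under CHIR-99021. The pair was thus at near equal levels in carbidopa and LY-364947 libraries.

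**Figure D3:**
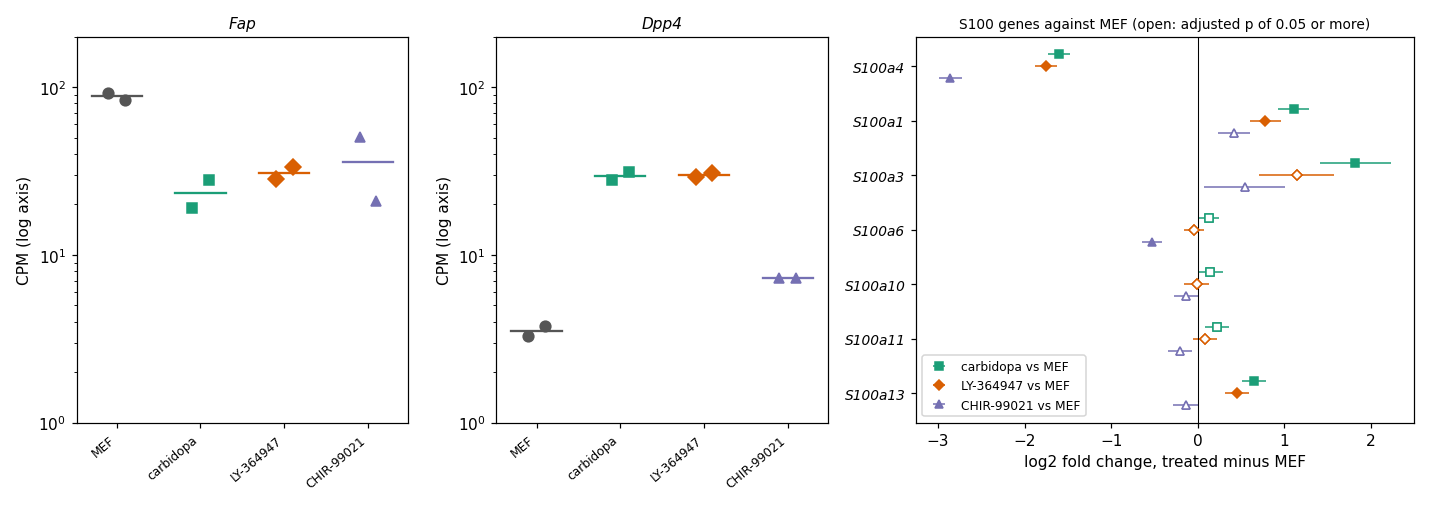
Level of Fap and of Dpp4 in the 8 libraries (left and middle, CPM on a log axis, lines are means of 2) and log2 fold changes of S100 genes against MEF (right, bars are standard errors, open symbols have an adjusted p of 0.05 or more). Fap was highest and Dpp4 lowest in MEFs, and S100a4 was the only S100 gene shown that was lower in all 3 comparisons.

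Cd34 (chr1:194938819-194961279, plus strand) encodes a sialomucin carried by blood progenitors, endothelium and many stromal fibroblasts. Its level was 59.1 and 61.2 CPM in MEFs, 7.67 and 10.5 CPM under carbidopa, 9.49 and 10.1 CPM under LY-364947, and 1.78 and 2.73 CPM under CHIR-99021. The MEF libraries agreed closely, the carbidopa and LY-364947 libraries overlapped with each other, and the CHIR-99021 libraries lay below all others. Cd34 had log2 fold changes of -2.73 under carbidopa (standard error 0.18, adjusted p = 1.25e-06), -2.62 under LY-364947 (standard error 0.18, adjusted p = 1.69e-06) and -4.73 under CHIR-99021 (standard error 0.21, adjusted p = 8.97e-08). These are falls of 6.62-fold, 6.15-fold and 26.6-fold, the last being the largest of the 10 genes in any comparison. CHIR-99021 libraries were below carbidopa libraries by -2.01 (standard error 0.22, adjusted p = 3.15e-04) and below LY-364947 libraries by -2.11 (standard error 0.22, adjusted p = 2.51e-04). Macrophage markers also fell, with the sums given above, and were likewise lowest under CHIR-99021. Of the endothelial list, Emcn also fell in all 3 comparisons, as did Vwf, with the limit given above. Kdr, a VEGF receptor, stood at 8.42 to 14.2 CPM over the libraries and passed in none of these comparisons (adjusted p of 0.238 to 0.751). Egfl7 passed in none either, and its mean was higher in each treated group (1.92, 1.34 and 1.96 CPM) than in MEFs (1.09 CPM). Cldn5, Tie1, Pecam1 and Cdh5 had at most 7 reads in any library. Reads of Cd34 per read of Csf1r were 1.58 and 1.84 in MEFs and 0.470 to 0.960 in treated libraries. This ratio depends on the marker taken. The macrophage marker Ctss went from a mean of 93.5 CPM in MEFs to 10.2, 7.54 and 5.40 CPM. Mrc1, another, went from 44.4 CPM to 24.5, 18.2 and 0.665 CPM. Ctss thus fell more than Cd34 under carbidopa and LY-364947 and less under CHIR-99021, and Mrc1 the reverse. The part of macrophages or endothelial cells in the Cd34 result was not tested. Ly6a, the surface antigen Sca-1 of stromal progenitors, was also highest in MEFs and lowest under CHIR-99021, at 478 and 538 CPM in MEFs, 126 and 128 CPM under carbidopa, 121 and 112 CPM under LY-364947, and 28.0 and 36.0 CPM under CHIR-99021. It fell (log2 fold changes -2.00, -2.13 and -3.99).

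S100a4 (chr3:90603771-90606045, plus strand) encodes fibroblast-specific protein 1, a calcium-binding protein that macrophages and other leukocytes also make. It was read at 311 and 295 CPM in MEFs, 109 and 90.5 CPM under carbidopa, 82.1 and 98.2 CPM under LY-364947, and 40.2 and 43.5 CPM under CHIR-99021. Replicates of each group were close, carbidopa and LY-364947 overlapped, and CHIR-99021 was lowest. S100a4 fell (log2 fold changes -1.60, -1.75 and -2.86, standard error 0.13 in each, adjusted p = 5.40e-06, 3.08e-06 and 1.19e-07), which is 3.03-fold, 3.36-fold and 7.24-fold lower. Against carbidopa the CHIR-99021 libraries differed by -1.25 (standard error 0.13, adjusted p = 2.08e-04), and against LY-364947 by -1.11 (standard error 0.13, adjusted p = 4.34e-04). Lyz2, the lysozyme of macrophages, fell (log2 fold changes -1.90, -2.39 and -3.88), as did Ctss, cathepsin S (-3.19, -3.63 and -4.11), and Mrc1, the mannose receptor CD206 (-0.86, -1.29 and -6.05). Reads of S100a4 per read of Csf1r were 8.31 and 8.88 in MEFs, 8.79 and 6.36 under carbidopa, 8.31 and 8.58 under LY-364947, and 10.6 and 11.9 under CHIR-99021. Per read of Lyz2 they were 0.421 and 0.389 in MEFs, 0.507 and 0.484 under carbidopa, 0.582 and 0.683 under LY-364947, and 0.840 and 0.809 under CHIR-99021. The ratio thus depended on the marker taken. The part of macrophages in the S100a4 result was not tested. S100a4 shares 302 exon bases (51.7%) with the gene model Gm42674 on the same strand, which held 0 to 3 reads, so reads over the shared bases may have been left uncounted in every library.

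Of 8 other genes of the S100 family listed, 6 were tested. Under carbidopa, 3 were higher, and the others lay between 0.13 and 0.22. Under LY-364947, 2 were higher, and the others lay between -0.05 and 1.14. Under CHIR-99021, 1 was lower, and the others lay between -0.20 and 0.54. S100a1, a calcium sensor best known from heart muscle, rose by 1.11 under carbidopa and 0.78 under LY-364947, and its difference under CHIR-99021 was 0.42 (adjusted p = 0.0936). The call under LY-364947 was lost without MEF replicate 2 (0.72, adjusted p = 0.0689), and the CHIR-99021 value passed without carbidopa replicate 1 or 2 (adjusted p = 0.00595 and 0.00560). S100a13, which takes part in the release of fibroblast growth factor 1, rose by 0.65 and 0.45, with -0.14 for CHIR-99021 (adjusted p = 0.470). Its call under carbidopa was lost without MEF replicate 1 (0.61, adjusted p = 0.0503), and that under LY-364947 in DESeq2 (adjusted p = 0.0734) and without any 1 of the MEF, LY-364947 or CHIR-99021 libraries (0.42 to 0.48). S100a6, calcyclin, fell by 0.53 under CHIR-99021 (adjusted p = 0.00476), with 0.13 and -0.05 in the others. That call was lost without CHIR-99021 replicate 1 (-0.44, adjusted p = 0.0633), and the carbidopa value passed without carbidopa replicate 2 (0.25, adjusted p = 0.0321). The third gene that rose under carbidopa was S100a3 (1.82, adjusted p = 0.00642, named after its value was seen), whose locus ends 1068 bases from that of S100a4.

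Other surface markers of mesenchymal cells fell more often than they rose. Of 17, 4 were higher and 12 lower under carbidopa, 2 and 10 under LY-364947, and 1 and 14 under CHIR-99021. The 17 genes had a median of -1.02, -0.80 and -1.15 in log2 terms. Cd44, the hyaluronan receptor, was measured at 884 and 916 CPM in MEFs and at 131 to 247 CPM in treated libraries, and fell (log2 fold changes -2.61, -2.73 and -1.92). The genes that rose were Dpp4, Alcam, Vcam1 and Anpep under carbidopa, Dpp4 and Alcam under LY-364947, and Dpp4 under CHIR-99021.

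**Figure D4:**
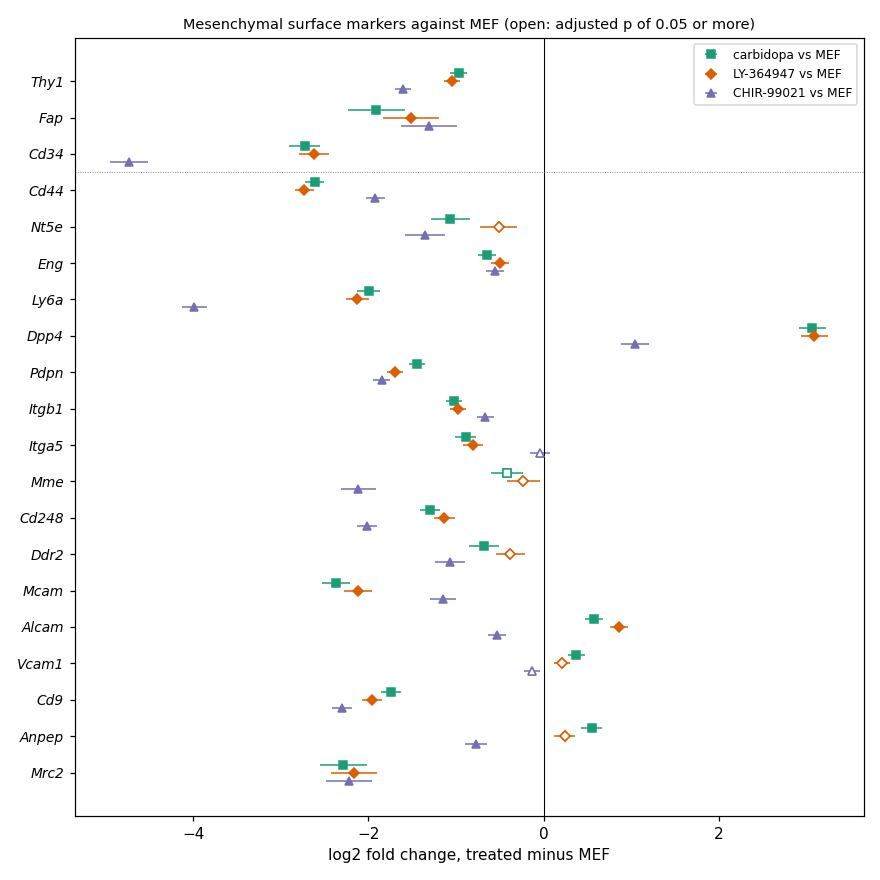
Log2 fold changes against MEF (x axis) of Thy1, Fap and Cd34, above the dotted line, and of 17 other mesenchymal surface markers, with standard errors as bars and open symbols for an adjusted p of 0.05 or more. Most symbols lie left of 0, Dpp4 lies to the right in all 3 comparisons, and Cd34 and Ly6a lie furthest left under CHIR-99021.

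Between compounds at the same 10 µM, CHIR-99021 differed from carbidopa in 6 of the 10 genes (2 higher, 4 lower) and from LY-364947 in 5 (1 higher, 4 lower), against 14.7% and 14.1% of all genes tested (6.62% higher and 8.08% lower, and 6.45% higher and 7.69% lower). The genes that were lower under CHIR-99021 were Pdgfd, Thy1, Cd34 and S100a4 in both comparisons, which share the CHIR-99021 libraries. Those that were higher were Pdgfrb in both and Pdgfc against carbidopa. For Pdgfra the difference between CHIR-99021 and LY-364947 was 0.27 (95% confidence interval 0.02 to 0.52, adjusted p = 0.140), and it passed when those groups were fitted alone (adjusted p = 0.0258) or without either carbidopa library (0.0124 and 0.0127). For Pdgfb, CHIR-99021 stood above carbidopa by 1.74 (95% confidence interval 0.44 to 3.04, adjusted p = 0.0753), which passed with no filter on low counts (adjusted p = 0.0126) and without carbidopa replicate 2 (3.25, adjusted p = 0.00766).

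LY-364947 and carbidopa differed in none of the 10 genes by edgeR's quasi-likelihood test, by DESeq2, or at an unadjusted p under 0.05, a comparison in which 0.0132% of all genes tested passed, and 9.02% had an unadjusted p under 0.05. The smallest adjusted p was 0.519. Over all genes, the number called in this comparison moved with the setting, from 0 with these groups alone to 329 with no filter on low counts. The 2 carbidopa libraries differed by 34.6 times the chi-square value of counting error, beside 4.31 to 9.21 times in the other groups. The differences were bounded most tightly for Thy1 (-0.08, 95% confidence interval -0.28 to 0.13) and Pdgfrb (0.15, -0.07 to 0.38), and least for Pdgfb (0.54, -0.93 to 2.01). For Cd34 the difference was 0.11 (95% confidence interval -0.30 to 0.51) and for S100a4 -0.15 (-0.43 to 0.13). Without carbidopa replicate 2, 1 gene passed, Pdgfa (-0.62, adjusted p = 0.0262).

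**Figure D5:**
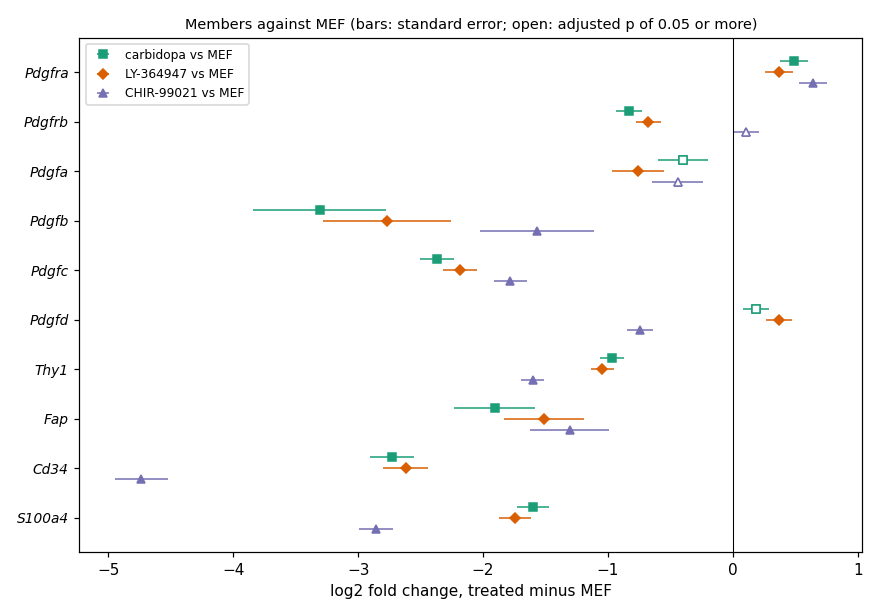
Log2 fold changes of the 10 genes against MEF (x axis) for carbidopa, LY-364947 and CHIR-99021, with standard errors as bars and open symbols for an adjusted p of 0.05 or more. Pdgfra lies right of 0 in all 3, Pdgfrb and Pdgfd change position under CHIR-99021, and Cd34 has the lowest value.

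In MEFs the order of levels per kb of exon was S100a4 (519 CPM per kb), Thy1 (462), Pdgfrb (81.1), Pdgfd (43.1), Pdgfra (25.0), Fap (15.6), Cd34 (8.25), Pdgfc (7.82), Pdgfa (6.05) and Pdgfb (0.685). Of these neighbours, Cd34 (8.11 and 8.40 in the 2 libraries) and Pdgfc (7.50 and 8.14) were closest to each other.

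The genes whose log2 CPM followed each of the 10 most closely over the 8 libraries, among 10466 with a mean of at least 100 normalized counts, are given as a description, since the points are 4 groups of 2 libraries. Pdgfc was most like Col11a1 (Pearson r = 0.999), a fibrillar collagen chain, P4ha3 (0.998), a collagen prolyl hydroxylase subunit, and Col8a1 (0.998), another collagen chain. Pdgfrb was most like Nuak1 (0.990), Cap1 (0.989) and Itga5 (0.988), the fibronectin receptor chain. Cd34 was most like Tll1 (0.997), Slc35f5 (0.996) and Il1r1 (0.996). Thy1 was most like Clec4d (0.998), a C-type lectin of myeloid cells, Ucp2 (0.998), a mitochondrial carrier, and Fbln1 (0.997), a matrix protein. S100a4 was most like Ucp2 (0.998), Snx12 (0.996) and Thy1 itself (0.995). For Pdgfd the closest gene was Ddit4l (0.996), for Pdgfb Nav2 (0.998), for Pdgfra Mcu (0.993), for Pdgfa Mcfd2 (0.979) and for Fap Prex1 (0.971). The number of genes with r over 0.95 ranged from 10 for Pdgfa to 398 for Pdgfc.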

How the data were processed

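Gene expression was measured by RNA-seq in 4 groups of 2 libraries (control MEFs and MEFs given 1 of 3 compounds). The authors aligned reads with STAR 2.4.2a (build mm10) and assigned them to genes with featureCounts, and the deposited values are read counts per gene without normalization. The annotation release and the strand setting are not given in the sources used here. The methods name a NEBNext library kit and the labels a SMARTER kit. Of 50578 Ensembl identifiers, 50354 (99.6%) were found in GENCODE M21 (GRCm38), which gave positions and exon lengths. Libraries held 15039566 to 20504338 counts, and a limit derived from a count covers only counting error.

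Counts were analysed in R 4.3.3 with edgeR 4.0.16 (TMM, filterByExpr, quasi-likelihood test, all 8 libraries in one fit, group as the only term). Benjamini-Hochberg adjustment was over the 15154 genes tested, and tests were two-sided. The coefficient of biological variation was 11.0%. The steps were tested on simulated data. Groups came from the sample labels. The genes and lists were chosen with earlier results of these data known. Named are the 10 genes, up to 3 genes of every other list with the smallest p against MEF, all related ligands and receptors, and the 3 genes most like each of the 10. Some genes that this rule names are not reported here.

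The alternatives were DESeq2 1.42.0, RLE size factors, no filter on low counts, at least 10 counts in every library, a replicate block, fits of the compared groups alone and the omission of each library in turn.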

Additional observations from a re-analysis of the deposited data

How the results depend on the processing

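The numbers of the 10 genes that differed were within 1.5 times of those reported in all comparisons under DESeq2, RLE size factors, both other filters and the fits of the compared groups alone. Leaving out 1 library at a time, the genes that differed from MEFs numbered 7 to 9 (carbidopa), 7 to 10 (LY-364947) and 7 to 9 (CHIR-99021), and there were 5 to 8 and 5 to 7 for CHIR-99021 against carbidopa and LY-364947, and 0 to 1 for LY-364947 against carbidopa. Of 833 values of these genes under an alternative, 789 kept direction and call, 22 lost the call, 15 gained it and 7 changed sign. All sign changes came from leaving out a library. Their ranges were -0.16 to 1.10 (Fap, CHIR-99021 against carbidopa), -0.56 to 0.71 (Fap, CHIR-99021 against LY-364947), -0.29 to 0.27 (Pdgfa, CHIR-99021 against carbidopa), and, for LY-364947 against carbidopa, -0.10 to 0.35 (Cd34), -0.18 to 2.04 (Pdgfb) and -0.25 to 0.020 (Pdgfra). Among related genes the ranges were -0.0058 to 0.19 (Csf1, CHIR-99021 against MEF), -0.26 to 0.060 and -0.26 to 0.065 (Flt3l, carbidopa and CHIR-99021 against MEF) and -0.013 to 0.25 (S100a6, carbidopa against MEF). The cause was not tested.

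Same-numbered libraries deviated together with correlations of -0.161 to 0.128, so the numbers were not taken as pairs. With the number as a replicate block, 8, 10 and 8 genes differed from MEFs, 6 and 5 between CHIR-99021 and the other compounds, and 0 between LY-364947 and carbidopa.

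Over all genes, CHIR-99021 differed from carbidopa in 2227 genes, or 1027 with these groups alone, and from LY-364947 in 2143, or 3673. LY-364947 differed from carbidopa in 2 genes, 15 in DESeq2, 329 with no filter and 0 with these groups alone. Leaving out a library gave 3142 to 7996, 2841 to 6519 and 3433 to 7800 genes against MEFs, 715 to 4632 and 663 to 4228 for CHIR-99021 against the other compounds, and 2 to 3816 for LY-364947 against carbidopa. Each group has 2 libraries, and depth limits Pdgfb (2 to 42 reads) most.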
